A study of Mus musculus with 6 samples.

Results

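Genes that handle fatty acids and sterols were described cell by cell in spinal cords from WT mice and from mice of the Nd6 line. The 8 genes, of 18792 in the deposited table, were listed by name for what they do, with earlier results of these data known. They were Fabp5 for fatty acid binding, Lpl for lipoprotein hydrolysis, Plin2 and Soat1 for storage, Lipa and Npc2 for release of sterol from the lysosome, and Abca1 and Abcg1 for sterol efflux. All 8 were rows of the table. The Nd6 line carries an altered ND6, a complex I subunit encoded by mitochondrial DNA, and serves as a model that lacks reverse electron transport, the backward flow of electrons through the complex. The labels list 1 library of WT and 1 of Nd6 healthy control mice, and 2 each of WT and Nd6 mice with experimental autoimmune encephalomyelitis (EAE), the MS-like disease that follows immunization with a myelin oligodendrocyte glycoprotein peptide. According to the study's methods the EAE mice were female and the healthy controls of both sexes. All mice were adult, and all tissue was perfused and digested with inhibitors of transcription and cleared of debris. The 13614 cells of the table carry names that end in 1 of 6 suffixes, and nothing links a suffix to a library. The sets of cells that share a suffix are therefore called A to F by falling size (4633, 3995, 1664, 1309, 1204 and 809 cells), WT and Nd6 mice and control and EAE mice are not compared, and no value below has a replicate or a p-value. Values are means per cell of the deposited whole numbers, whose unit is not stated and whose totals per cell are close together (687 to 1578, median 962).

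Phagocytes in the injured nervous system take up lipid-rich debris, of which myelin is the main source. Fatty acids are carried in the cytosol by binding proteins and can be stored in lipid droplets, while cholesteryl esters that arrive in the lysosome are hydrolysed there and the free sterol is re-esterified or handed to lipid-poor apolipoproteins at the cell surface. APOE is the main lipid carrier made in the nervous system, and Apoe is also a marker of disease-associated microglia (DAM).

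Sterol export genes are textbook targets of the liver X receptors (LXR), which bind a pair of direct repeats spaced by 4 bases (DR4), and RefSeq promoter windows (GRCm38.p6, 250 bases before to 50 after the start) were available for 5 of the 8 genes: Abca1, Plin2, Soat1, Lipa and Npc2. The windows of Abca1 and Plin2 are shown without their transcribed end, Abca1 for a DR4-like element and Plin2 for a single nuclear receptor half-site. Whether the Plin2 half-site has a role was not tested. Both genes lie on the minus strand and both sequences are written 5′ to 3′ along it, Abca1 from chr4:53159896-53160145 and Plin2 from chr4:86670060-86670309. Capitals in Abca1 mark, in order, the E-box CACGTG, the DR4-like element and the TATA box TATAAA, and in Plin2 the nuclear receptor half-site AGGTCA read on the other strand.
Abca1: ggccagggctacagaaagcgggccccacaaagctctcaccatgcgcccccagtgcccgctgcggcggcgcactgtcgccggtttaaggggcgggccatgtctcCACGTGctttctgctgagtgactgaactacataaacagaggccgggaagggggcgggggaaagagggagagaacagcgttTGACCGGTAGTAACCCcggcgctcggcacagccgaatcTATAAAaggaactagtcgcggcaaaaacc
Plin2: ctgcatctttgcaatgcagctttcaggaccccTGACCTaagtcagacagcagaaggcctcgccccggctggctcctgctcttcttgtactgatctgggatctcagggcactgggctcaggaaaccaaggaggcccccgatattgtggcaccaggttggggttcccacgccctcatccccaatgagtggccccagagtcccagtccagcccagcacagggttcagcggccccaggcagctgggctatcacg

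The loose pattern NGGTNANNNNNGGTCA, searched on both strands, was in 0.207% of 32851 promoter windows and, of the 5, in that of Abca1 only, 67 to 52 bases before the start. It was written to include the element already known in this gene, so the match is a description. The exact repeat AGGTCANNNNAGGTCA was in 0.0152% of windows and in none of the 5. The E-box was in 7.15% of windows and in those of Abca1 and Plin2, where it crosses the start, the half-site in 16.3% and in Plin2, and TATAAA in 13.6% and in Abca1 and Lipa. The GC box GGGCGG was in 35.7% of all windows and in all 5.

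Cell types were gated by summed values of marker genes. Myeloid cells (C1qa, Ctss and Tyrobp adding to 8 or more) numbered 11481, or 84.3% of all cells. Below that limit, cells with at least 3 of 6 markers of a type above 0, adding to 6 or more, gave 940 oligodendrocytes, 187 endothelial cells, 71 ependymal cells, 49 pericytes or smooth muscle cells, 31 astrocytes and 26 T or NK cells, and 829 cells stayed ungated. Markers that the gates did not use followed the names: 7 of 8 held-out myeloid markers were at least 2-fold higher inside the gate than outside (1.89-fold to 3.58-fold), and for each other type all 6 held-out markers were, by 2.10-fold or more. Markers of other types were nonetheless spread over the gates. The myeloid marker Tyrobp, although capped outside the myeloid gate because the gate uses it, was above 0 in 46.4% of oligodendrocytes, 58.1% of astrocytes, 23.0% of endothelial and 15.4% of T or NK cells, and 5963 of the myeloid cells (51.9%) also met the rule for oligodendrocytes. The source of these values was not tested, so a low value outside the myeloid gate is no evidence of expression there.

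Of the 8 genes, 5 had their highest mean in myeloid cells (Lpl, Plin2, Abca1, Abcg1 and Npc2), against 15.2% of the 2866 genes with a mean of 0.05 or more over all cells. The other 3 did not: Fabp5 and Soat1 were highest in the 31 astrocytes and Lipa in endothelial cells. The mean over all cells is set mostly by myeloid cells, which are 84.3% of them. Abcg1 was at most 0.0372 in the other gated types and passed the filter through the myeloid cells. The count beside all genes is therefore a description and supports nothing about the list.

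**Figure D1:**
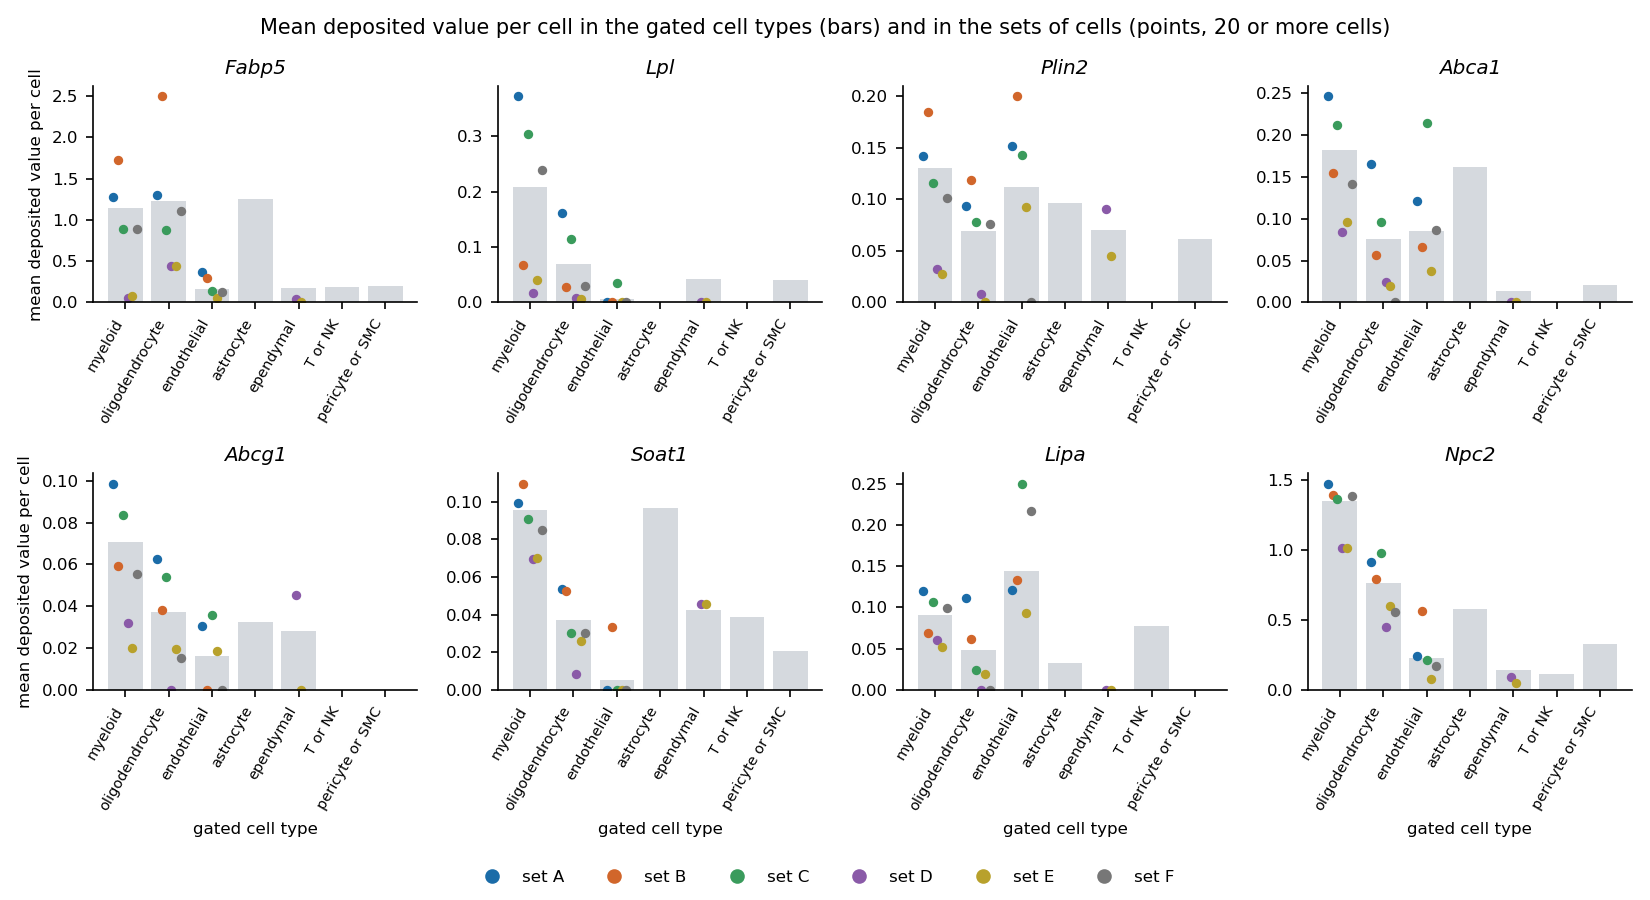
Mean deposited value per cell (y axis) of each gene in the 7 gated cell types (x axis). Bars are all cells of a type and points are the sets A to F with at least 20 cells of it. Lpl, Abcg1 and Npc2 are tallest in myeloid cells, whereas Fabp5 is as tall in oligodendrocytes and astrocytes and Lipa is tallest in endothelial cells.

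Fabp5 (chr3:10012548-10016607, GRCm38) encodes a cytosolic fatty acid binding protein. Its mean was 1.26 in astrocytes, 1.23 in oligodendrocytes and 1.14 in myeloid cells, and between 0.166 and 0.204 in the 4 other types. It was above 0 in 55.3% of myeloid cells (exact binomial 95% interval 54.4 to 56.2%), 46.0% of oligodendrocytes (42.7 to 49.2%) and 54.8% of the 31 astrocytes (36.0 to 72.7%), against 15.5% of endothelial cells. The means of these 3 types lay close together, and the part of stray myeloid RNA in the other 2 was not tested. The deposited values also varied with the number of genes per cell. Among the 923 myeloid cells with the fewest genes, Fabp5 was 1 in 20 and 2 in 168. Among the 1090 with the most genes, it was 1 in 335 and 2 in 143. The median number of genes was 412 in astrocytes, 403 in oligodendrocytes and 560 in myeloid cells, and its part in the order of the means was not tested. The sets differed more than the types did. In myeloid cells the mean of Fabp5 was 1.28 in set A, 1.73 in B, 0.895 in C, 0.0517 in D, 0.0767 in E and 0.892 in F. In oligodendrocytes it was 1.30 in A, 2.50 in B, 0.880 in C, 0.442 in D, 0.444 in E and 1.11 in F, above the myeloid mean of the same set in 5 of 6 sets. For 14.9% of genes the oligodendrocyte mean was the higher in at least 5 of the 6 sets. The difference was largest in B, and in D and E the myeloid cells were nearly free of Fabp5. In the 369 oligodendrocytes with a marker sum of 50 or more, the mean over all sets was 0.957, and those of D and E were 0.425 and 0.584. Other family members stayed low: Fabp7, of astrocytes and radial glia, had a mean of 0.258 in astrocytes, 0.211 in ependymal and 0.00915 in myeloid cells, and Fabp3 and Fabp4 had means of 0.0334 and 0.0162 in myeloid cells and 0.0170 and 0.0106 in oligodendrocytes. A processed copy of Fabp5 (Gm6166, 98.3% identical over 409 bases) is a row of its own and had a mean of 0.000784 in myeloid cells. A further copy (Gm14328) is not a row, and how reads shared with it were counted is not given in the sources used here.

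**Figure D2:**
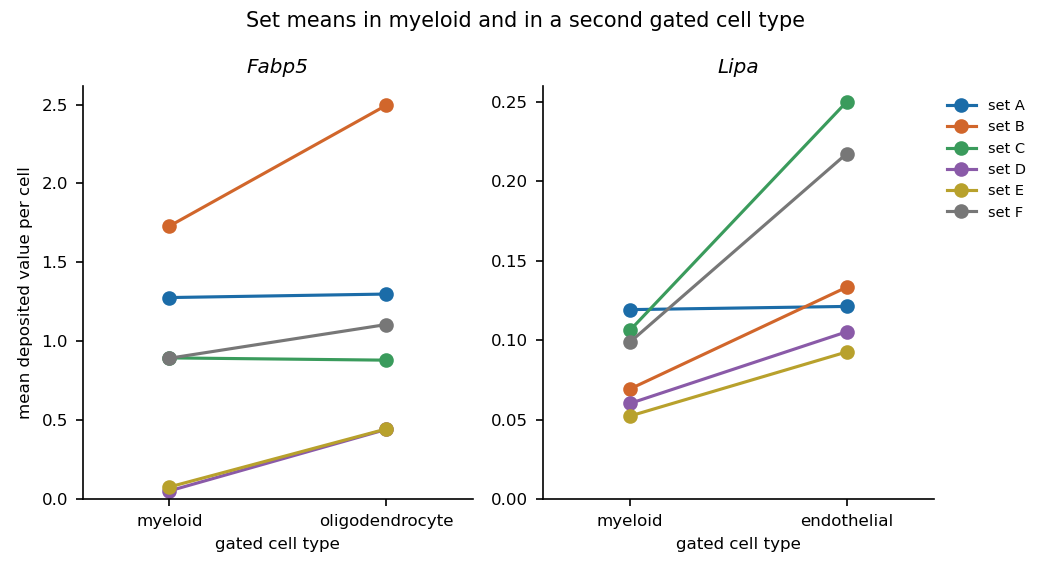
Mean deposited value per cell (y axis) of Fabp5 in myeloid cells and oligodendrocytes and of Lipa in myeloid and endothelial cells (x axis), with a line for each of the sets A to F. Fabp5 runs from 0.0517 to 1.73 over the sets in myeloid cells and from 0.442 to 2.50 in oligodendrocytes, and every line of Lipa ends higher in endothelial cells, of which set D has 19.

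Lpl (chr8:68880491-68907448), lipoprotein lipase, releases fatty acids from circulating or local lipoproteins. Its mean was 0.208 in myeloid cells, 0.0691 in oligodendrocytes, 0.0423 in ependymal cells and 0.00535 in endothelial cells, and it was 0 in all 31 astrocytes and all 26 T or NK cells (upper limits of the exact binomial 95% intervals 11.2% and 13.2% of cells). No set with at least 20 oligodendrocytes or endothelial cells had a mean there above its myeloid mean. In myeloid cells the mean was 0.372 in set A, 0.0681 in B, 0.304 in C, 0.0179 in D, 0.0400 in E and 0.239 in F. Set B, highest for Fabp5, was thus among the 3 lowest for Lpl.

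The droplet coat protein perilipin 2, encoded by Plin2 (chr4:86648386-86670060), and SOAT1, which esterifies cholesterol for storage (Soat1, chr1:156424525-156474331), were spread differently. Plin2 had a mean of 0.130 in myeloid cells, 0.112 in endothelial cells and 0.0691 in oligodendrocytes. Its mean was higher in endothelial than in myeloid cells in 4 of the 5 sets with at least 20 endothelial cells, as was that of 34.7% of genes. Soat1 had a mean of 0.0955 in myeloid cells, 0.0372 in oligodendrocytes and 0.00535 in endothelial cells, where 1 of 187 cells was above 0. The astrocyte mean of 0.0968 came from 3 cells of 31 (9.68%, interval 2.04 to 25.8%), which does not set it apart from myeloid cells (8.91%, interval 8.40 to 9.45%).

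Lipa (chr19:34492318-34527474) encodes lysosomal acid lipase, which splits cholesteryl esters and triglycerides taken up by the cell. Its mean was 0.144 in endothelial and 0.0910 in myeloid cells, and 13.9% of endothelial cells (interval 9.29 to 19.7%) and 8.32% of myeloid cells (7.82 to 8.84%) were above 0. The endothelial mean was the higher in all 5 sets with at least 20 endothelial cells, and in D with 19, at 0.121 in A, 0.133 in B, 0.250 in C, 0.105 in D, 0.0926 in E and 0.217 in F, against 0.119, 0.0692, 0.106, 0.0602, 0.0522 and 0.0987 in myeloid cells. The difference was smallest in A, no set held more than 54 endothelial cells, and for 19.4% of genes the endothelial mean was the higher in all 5 sets. Npc2 (chr12:84754562-84773152) encodes the soluble lysosomal protein that passes free cholesterol to NPC1. Its mean was 1.36 in myeloid cells, 0.765 in oligodendrocytes, 0.581 in astrocytes and 0.115 to 0.327 in the other types, and it was above 0 in 67.8% of myeloid cells. Myeloid cells exceeded oligodendrocytes in all 6 sets and endothelial cells in the 5 with at least 20 of them, and their set means went from 1.02 in D and E to 1.48 in A.

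The transporters that load cholesterol onto lipid-poor apolipoproteins (Abca1, chr4:53030787-53159895) and onto HDL-like particles (Abcg1, chr17:31057675-31117988) led in myeloid cells. Abca1 had a mean of 0.183 in myeloid cells, 0.161 in astrocytes, 0.0856 in endothelial cells and 0.0755 in oligodendrocytes. The astrocyte value rested on 3 of 31 cells, and in set C the endothelial mean was the higher, at 0.214 against 0.212. Abcg1 had a mean of 0.0706 in myeloid cells and 0.0372 in oligodendrocytes, was at most 0.0323 in the other types, and in each set with at least 20 cells was higher in myeloid cells than in oligodendrocytes or endothelial cells. Over the sets A to F, myeloid Abca1 was 0.246, 0.155, 0.212, 0.0846, 0.0967 and 0.142. Myeloid Abcg1 was 0.0987 in A, 0.0595 in B, 0.0838 in C, 0.0320 in D and 0.0553 in F, and was lowest in E. Both were highest in A and C and lowest in D and E.

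Myeloid cells were then split by their own value of Apoe (chr7:19696109-19699188), which is not one of the 8 genes, into groups of 0 to 4 (1903 cells), 5 to 19 (979), 20 to 49 (3046), 50 to 99 (2300) and 100 or more (3253). The groups were largely groups of sets. Sets D and E supplied 1864 of the 1903 cells at 0 to 4 (98.0%), set B supplied 2462 of the 3046 cells at 20 to 49 (80.8%), and sets A and C supplied 4984 of the 5553 cells at 50 or more (89.8%). Median Apoe in myeloid cells was 106 in A, 33 in B, 96 in C, 0 in D and E and 59 in F. Oligodendrocytes followed their set, with mean Apoe of 46.5, 17.2, 45.0, 0.733, 0.954 and 16.2 from A to F. The Apoe level and the set cannot be told apart in the pooled values, and the share of Apoe RNA that came from outside the cell was not tested. Other measures differed as well. From the lowest to the highest group the median number of genes per cell was 495, 488, 532, 493.5 and 667. Cells that also met another type's rule made up 34.5% of the lowest and 76.7% of the highest group.

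**Figure D3:**
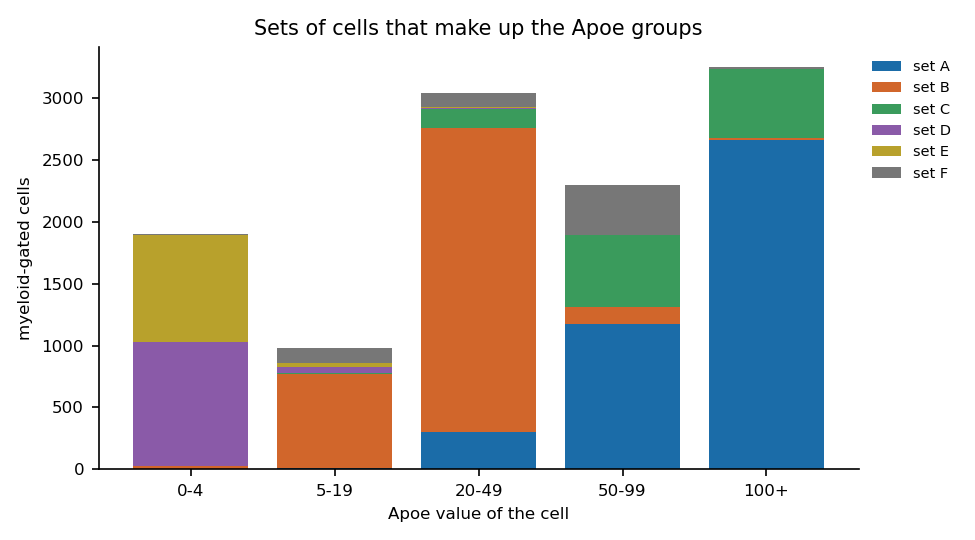
Number of myeloid cells (y axis) in each Apoe group (x axis), stacked by set. The lowest group is almost wholly sets D and E, the middle group mostly set B and the highest group sets A and C.

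Between cells at Apoe 50 or more and cells at 0 to 4, all 8 genes had a ratio of means above 1 over the pooled cells, and 6 of 8 were at 2 or more: Lpl at 21.9, Fabp5 at 18.1, Plin2 at 4.22, Abcg1 at 3.82, Abca1 at 2.76 and Lipa at 2.31. Npc2, at 1.46, and Soat1, at 1.42 but 0.881 with each set weighted equally, were not. Of the 2807 genes with a mean of at least 0.05 in myeloid cells, which include all 8, 13.8% reached 2 and 8.09% were at 0.5 or less. The median ratio was 3.29 for the 8 genes and 0.983 for all 2807, of which Lpl ranked 33rd and Fabp5 37th. Lpl, Plin2 and Abcg1 had means under 0.05 at Apoe 0 to 4 and passed that filter through the groups where they were higher. The 8 genes were also chosen with earlier results of these data known. Their count, median ratio and ranks beside all genes are therefore a description and support nothing about the list. The same contrast within a set could be made only in B, with 148 and 27 cells. There Fabp5 had a ratio of 6.06 (means of 2.02 and 0.333, with 6 of the 27 cells above 0), Plin2 of 1.32, Npc2 of 1.30 and Soat1 of 0.704. Abca1, Lpl and Lipa were each above 0 in 1 of the 27 cells, and Abcg1 in none, so no ratio is given. In the 148 cells, 18.9% were above 0 for Abca1, 12.8% for Lpl, 10.1% for Lipa and 8.78% for Abcg1, and the exact binomial 95% intervals of these shares overlapped those in the 27 cells. In that set 17.8% of genes reached 2 and 20.8% were at 0.5 or less. Within B, of the genes that reached 2 in the pooled cells, only Fabp5 thus did so on more than 1 Apoe-low cell, and Plin2 did not reach it.

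The course over the 5 Apoe groups differed by gene. Lpl went from 0.0163 to 0.0664, 0.103, 0.305 and 0.393, and the share of cells above 0 from 1.42% to 32.2%. Abca1 followed with 0.0872, 0.118, 0.157, 0.197 and 0.272, and Abcg1 with 0.0242, 0.0480, 0.0670, 0.0826 and 0.0993. These 3 genes and Lipa (0.0515, 0.0705, 0.0716, 0.110 and 0.125) were higher in each successive group of the pooled cells, which are made of different sets. Within set F the step from 5 to 19 to 20 to 49 went the other way for Abca1 (a ratio of 0.563), Abcg1 (0.534) and Lipa (0.713), and within B it was 1.52 for Abca1 and 1.09 for Lipa. Fabp5 was not, at 0.0652, 0.918, 1.80, 1.15 and 1.20, with its peak in the group made up mostly of set B. Plin2 peaked in the same group, at 0.0321, 0.127, 0.184, 0.119 and 0.147. Npc2 (1.01, 1.39, 1.36, 1.39 and 1.52) and Soat1 (0.0709, 0.0919, 0.102, 0.0978 and 0.103) were lowest at 0 to 4 and varied little above it.

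**Figure D4:**
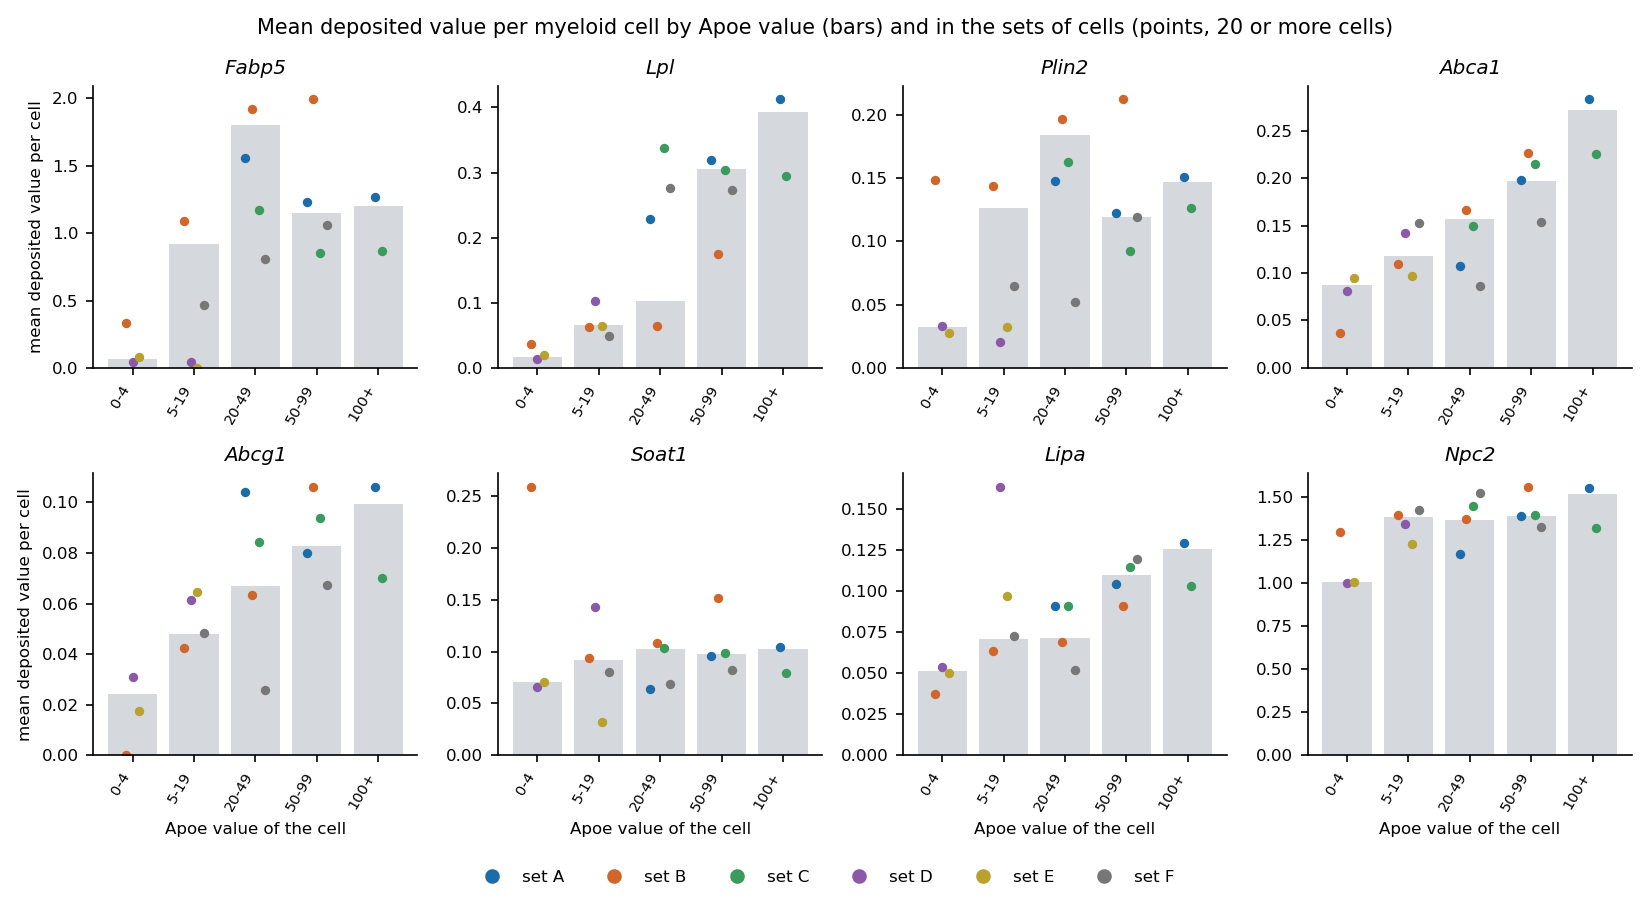
Mean deposited value per myeloid cell (y axis) of each gene in 5 groups of Apoe value (x axis). Bars are all myeloid cells of a group and points are the sets A to F with at least 20 cells in it. Bars of Lpl and Abca1 are taller in each successive group, those of Fabp5 and Plin2 are tallest at 20 to 49, and at a given Apoe level the sets lie apart, set B lowest for Lpl and highest for Fabp5 at 20 to 49.

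At a matched Apoe level the sets still differed. Among cells at 20 to 49, Lpl had a mean of 0.228 in A (298 cells), 0.0642 in B (2462), 0.338 in C (154) and 0.276 in F (116). Fabp5 was 1.56, 1.92, 1.17 and 0.810 in the same sets, so the set lowest for Lpl was highest for Fabp5. Plin2 was 0.148, 0.197, 0.162 and 0.0517, and Abca1 was 0.107, 0.166, 0.149 and 0.0862. At Apoe 5 to 19, Fabp5 was 1.09 in B (757 cells), 0.468 in F (124), 0.0408 in D (49) and 0 in E (31), so the few D and E cells with some Apoe stayed low in Fabp5. Lpl at that level was 0.0621 in B, 0.0484 in F, 0.102 in D and 0.0645 in E. No such gap was seen, but the means of D and E rest on 49 and 31 cells and cannot show that it is absent.

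Within A, B, C and F, cells at Apoe 50 or more could be set against cells at 20 to 49. Abca1 was higher in the Apoe-rich cells of all 4 sets, by a ratio of 2.40 in A, 1.38 in B, 1.47 in C and 1.78 in F. Lipa was too, at 1.34, 1.57, 1.20 and 2.36. In F these ratios rest on low means in the 116 cells at 20 to 49, 0.0862 for Abca1 and 0.0517 for Lipa. With values scaled to 10000 per cell the ratios of both genes stayed above 1, the lowest at 1.18 for Abca1 (in B) and 1.08 for Lipa (in A). The 2 genes of 8 that were higher in every set compare with 10.8% of all 2807 genes, and 3.14% were lower in every set. Lpl was higher in 3 of the 4 sets (1.68 in A, 2.63 in B, 0.888 in C and 1.06 in F) and Soat1 in 3 (0.860 in C and 1.32 to 1.68 elsewhere). Fabp5 had a ratio of 0.805 in A, 1.05 in B, 0.736 in C and 1.31 in F. Plin2 (0.669 to 2.50), Abcg1 (0.943 to 2.60) and Npc2 (0.888 to 1.28) likewise lay on both sides of 1. The same scaling moved some of these ratios across 1. Lpl in F went to 0.927 and Fabp5 in B to 0.900, Abcg1 in C to 1.16 and Npc2 in C to 1.03. Scaled, Lpl was thus below 1 in C and F. Above an Apoe value of 20, therefore, only Abca1 and Lipa of the 8 kept 1 direction in these 4 sets, and most of the pooled difference of Fabp5 lay between the groups at 0 to 4 and at 20 to 49.

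Myeloid cells were further marked by 2 gene lists, with a list sum of 2 or more that exceeded the other. The 4929 microglia-marked cells were called by P2ry12, Tmem119, Siglech, Gpr34, Fcrls and Olfml3, and the 884 monocyte-marked cells by Arg1, F10, AA467197, Clec4n and Plac8. The origin of these cells was not tested. Of the monocyte-marked cells 857 were in set B, so the pair was compared there, with 1004 microglia-marked cells. Fabp5 had a mean of 2.05 in monocyte-marked and 1.33 in microglia-marked cells, and Plin2 of 0.225 and 0.172. Npc2 was lower in monocyte-marked cells, at 1.33 against 1.63, and Lpl was 0.0642 against 0.0847. Apoe itself differed between them, at 35.3 and 28.7. At Apoe 5 to 19, Fabp5 was 2.06 in monocyte-marked (62 cells) and 0.699 in microglia-marked cells (365), and Plin2 was 0.290 and 0.129. Among cells at Apoe 20 to 49, Fabp5 was 2.02 in monocyte-marked (760 cells) and 1.73 in microglia-marked cells (560), Plin2 was 0.212 and 0.211, and Abca1 was 0.153 and 0.207. In microglia-marked cells of D and E, Fabp5 was 0.0470 and 0.0704, against 1.20 in A, 1.33 in B, 0.777 in C and 0.703 in F. Cells marked by neither list were low in D and E too, at 0.0935 and 0.124, against 1.32 in A and 1.81 in B. The 23 myeloid cells whose values of border macrophage markers added to 2 or more had means of 0.348 for Abca1 and Soat1, with too few cells per set to compare. Of 161 proliferating cells 133 were in set B, where their mean was 0.707 for Fabp5 and 0.0977 for Abca1, against 1.73 and 0.155 in all myeloid cells of B.

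Cells with several of the 8 genes were more frequent in the higher Apoe groups, which are largely groups of sets. A myeloid cell had a mean of 1.91 of the 8 genes above 0, an oligodendrocyte 1.20 and an endothelial cell 0.717. The median number of all genes above 0 per cell was 560, 403 and 741 in these types, and its part in the difference was not tested. From the lowest to the highest Apoe group the mean went from 0.865 to 2.50, the share of cells with 3 or more from 2.89% to 48.5%, and 33.9% of cells in the lowest group had none. No myeloid cell had all 8 above 0, and the most was 7. At Apoe 50 to 99 the mean was 2.01 and the share with 3 or more 31.3%. By set, the share with 3 or more was 45.3% in A, 27.4% in B and 23.8% in C. It was 2.63% in D, 4% in E and 26.2% in F. Set C lay below set B, with a median Apoe of 96 against 33. The median number of genes per cell was 495 at 0 to 4, 493.5 at 50 to 99 and 667 at 100 or more. Its part in these shares was not tested.

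Of 66 other genes of the same pathways, 64 were rows of the table and 13 passed the mean of 0.05 in myeloid cells. Between Apoe 50 or more and 0 to 4, 4 of the 13 reached a ratio of 2, 1 was at 0.5 or less and 8 lay between, against the 13.8% and 8.09% of all genes. Ch25h, Nceh1 and Osbpl8 had means under 0.05 at Apoe 0 to 4 and so passed the filter only through the groups where they were higher, and the count of 4 supports nothing about the list. Ch25h, which makes the LXR ligand 25-hydroxycholesterol, had a ratio of 32.0 (means of 0.0674 and 0.00210), but in set B it was 0.0676 against 0.0741. The cholesteryl ester hydrolase gene Nceh1 had 7.54 (in B, 0.0608 against 0.0370), the sterol transfer protein gene Osbpl8 had 2.92 (in B, 0.0811 against 0.0741), and the phospholipid transfer protein gene Pltp 2.11. Pltp was far higher in endothelial cells, with a mean of 2.56 against 0.126 in myeloid cells. Among lysosomal genes beside Npc2 and Lipa, Npc1, the membrane partner of NPC2, was at 0.815 and Scarb2, a lysosomal membrane protein gene, at 0.789. Of the fatty acid genes tested, Acsl4, which activates long polyunsaturated fatty acids, was at 0.400, Acsl5 at 0.873 and Dbi, which binds acyl-CoA, at 1.25. The lipoprotein receptor gene Lrp1 was at 0.580, the droplet assembly gene Bscl2 at 1.08 and Mylip, an LXR target that lowers the LDL receptor, at 0.942. None of the genes for neutral lipid hydrolysis passed the filter, and of those for sterol uptake and synthesis only Lrp1 did.

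**Figure D5:**
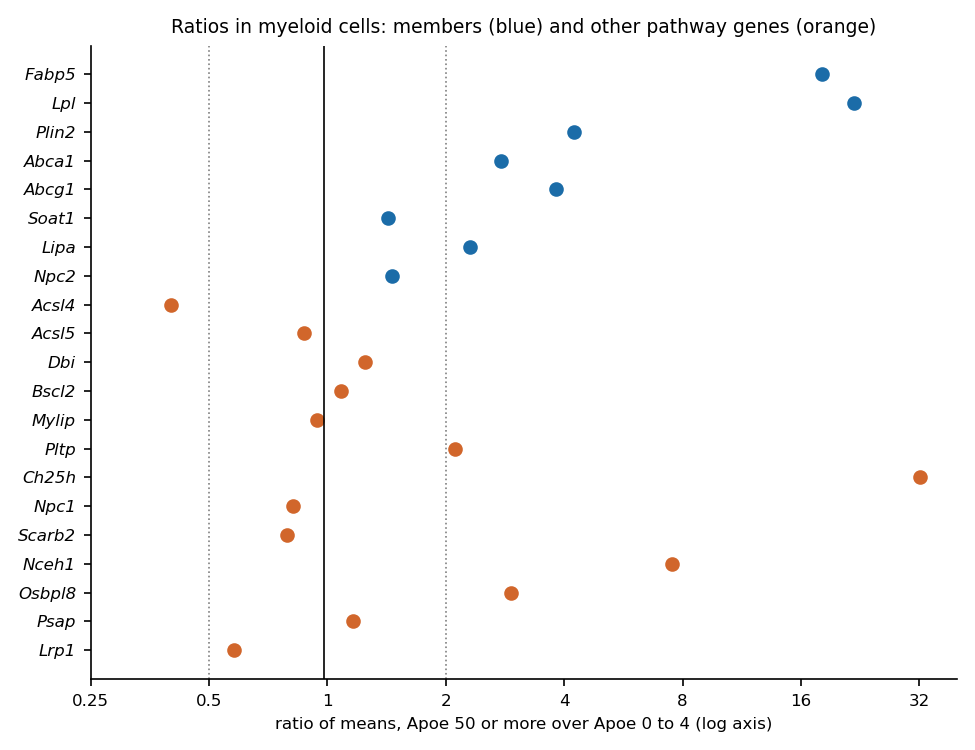
Ratio of mean deposited values in myeloid cells with Apoe 50 or more over those with Apoe 0 to 4 (x axis, log scale) for the 8 genes (blue) and the 13 other pathway genes that passed the filter (orange). The solid line is the median of all genes tested, 0.983, and dotted lines mark ratios of 0.5 and 2. Beyond 2 lie 6 blue and 4 orange points, and Acsl4 lies below 0.5.

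Patterns were compared over 11 groups, the 6 other cell types and the 5 Apoe groups. These groups share libraries and overlap in markers. By Pearson correlation of log2(mean + 0.05), the most alike genes were found for each gene among 8479 genes. For Fabp5 they were H2-Ab1 (r = 0.94), C4b (0.93) and Spp1 (0.92), for Lpl Ms4a7 (0.98), Fabp3 (0.95) and Gpr137b (0.93), and for Plin2 Zfp36 (0.93), Trappc2l (0.88) and Aldoa (0.88). For Abca1 they were Tmed3, A630001G21Rik and Fuca1 (0.95 to 0.96), for Abcg1 Glmp, Map11 and Apobec1 (0.95), and for Soat1 Sat1, Scpep1 and Commd9 (0.91 to 0.97). For Lipa they were Il10rb, Ap3d1 and Glb1 (0.92 to 0.94), and for Npc2 Ctsz, Cd300c2 and Ctsd (0.98). Glb1 and Ctsd encode lysosomal hydrolases. Among the 8 themselves, Abca1 was closest to Abcg1 (0.86) and Npc2 (0.86), and Lipa was least like the rest (0.20 to 0.57).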

How the data were processed

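Cells of the spinal cord were profiled with the 10x 3′ kit, aligned to GRCm38 with Cell Ranger 7.1.0 and merged in Seurat 4.3.0.1, per the labels. The authors deposited 1 table of 18792 genes and 13614 cells for all 6 libraries, 2.98% of whose values are above 0. In the deposited table each value was taken as a score, since all are whole numbers (highest 721) with totals of 687 to 1578 per cell, and how they were made from UMI counts is not given in the sources used here. Depth is therefore unknown, no count model was run, and exact binomial (Clopper-Pearson) 95% intervals cover counting error only. Of the barcodes, 18 were found in 2 sets and none in more. No doublets were called or removed, and 6016 myeloid cells (52.4%) also met another type's rule.

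The 8 genes and all lists were chosen with earlier results of these data known. Named genes were the 8, Apoe, of the pathway genes that passed the mean of 0.05 in myeloid cells the 2 highest and 2 lowest ratios per role, the 3 most alike genes among those above 0 in 5% of cells of a group, Fabp3, Fabp4 and Fabp7, and markers. Ratios were computed with Python 3.11.15, numpy 2.4.6 and scipy 1.17.1, checked on simulated data, and called at 2 or 0.5. A set was counted in a comparison only with 20 cells in each group; set D, with 19 endothelial cells, is shown but not counted. The border macrophage marker Lyve1 and the pathway genes Gpihbp1 and Abcg4 were not analysed here. Transcripts of other genes were matched to the 8 with blastn 2.17.0 (95% identity over 200 bases) in GENCODE vM21, which also gave the coordinates. Promoter windows, and motifs in them, were from RefSeq.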

Additional observations from a re-analysis of the deposited data

How the results depend on the processing

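No paired analysis was possible because nothing ties a cell of the pooled table to a numbered library. Under scaling to 10000 per cell, with or without Apoe in the total, myeloid gates of 5 and 12, the study's filters measured on the deposited values, equal weight for each set, shares of cells above 0, the 20% of cells highest against the 20% lowest in Apoe, cells without markers of another type, and leaving out each set in turn, 6 of the 8 genes reached a ratio of 2 each time and none reached 0.5. Of 134 recomputed ratios of the 8 genes, 119 stayed within 1.5 times and 15 did not. Settings B alone and without D and E were added after seeing the data. In both, on 27 and 39 Apoe-low cells, 5 genes reached 2, Abcg1 from a mean of 0 and, in B, Abca1, Lpl and Lipa from 1 cell each, and without D and E 1 of 8, Soat1, was at 0.491. Soat1 also went to 0.881 with each set weighted equally. Fabp5 ranged from 4.60 to 23.6, Lpl from 4.56 (in B, on 1 Apoe-low cell above 0) to 26.3 and Plin2 from 1.32 to 4.80. The number of all genes at 2 or more went from 388 to 252 without cells of another type's markers, 1034 with a mean filter of 0.02 and 3984 with no filter, and from 224 (without set A) to 443 when a set was left out. That of other pathway genes went from 4 to 2 with the gate of 5, 2 without cells of another type's markers, 8 with the filter of 0.02 and 15 with none, and from 1 (without set A) to 4 when a set was left out. The median ratio of all genes moved by 0.12 on the log2 scale when Apoe was left out of the scaling and by -0.19 with equal weights. The number of the 8 genes highest in myeloid cells was between 4 and 6 of 8 over all settings. The unknown depth limits every share of cells above 0.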
